A study of Homo sapiens with 11 samples.

Results

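The subject here is a set of 28 genes whose products govern the passage of RNA polymerase II from initiation into productive elongation, examined in human cells depleted of the elongation and splicing cofactor Tat-SF1. The rule that picks them uses gene symbols and no measured value, although the set was drawn up with earlier results of these data known. The set holds DSIF (SUPT4H1, SUPT5H), NELF (NELFA, NELFB, NELFCD, NELFE), the PAF complex (PAF1, CTR9, LEO1, CDC73, RTF1), the ELL, EAF and AFF proteins (ELL, ELL2, ELL3, EAF1, EAF2, AFF1, AFF4), TFIIS (TCEA1, TCEA2), SPT6 with its partner (SUPT6H, IWS1), FACT (SSRP1, SUPT16H), the kinases CDK12 and CDK13 with CCNK, and SETD2. All 28 had a gene value, of 14543 genes in all. The array table lists 735 probe sets for them, short regions that mostly correspond to exons, and 633 of these entered the gene values, between 9 (NELFB, EAF1, TCEA2) and 44 (SUPT6H) per gene. The cells were T-REx-293, a human embryonic kidney line whose inducible promoter responds to tetracycline, and all of them carried a GFP plasmid and received 2.5 µg/mL tetracycline for 72 h. The knockdown group held 3 arrays of Tat-SF1 shRNA A and 3 of Tat-SF1 shRNA B, and the control group held 3 arrays of GFP shRNA and 2 of the empty vector. The replicates are described as biological, and whether each stable line was 1 clone or a pool is not given in the sources used here. Each value was measured on Affymetrix Human Exon 1.0 ST arrays, and a gene value is the median log2 value of the probe sets of a gene on 1 array.

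Shortly after it starts a transcript, RNA polymerase II pauses near the promoter. DSIF and NELF bind the paused polymerase, and the kinase P-TEFb releases it by phosphorylating both of them and the polymerase tail, after which NELF leaves and DSIF travels on as a positive factor. The super elongation complex, built on an AFF scaffold with ELL and EAF proteins, delivers P-TEFb, the PAF complex and SPT6 accompany the moving polymerase, FACT and SPT6 handle the nucleosomes in its path, TFIIS restarts stalled polymerases, CDK12 and CDK13 phosphorylate the tail within genes, and SETD2 marks the transcribed chromatin. Tat-SF1 is known as a cellular cofactor of the HIV-1 protein Tat, which uses this machinery.

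The promoter windows of NELFB and NELFE are shown because these were the members that passed the test under other choices of processing. Each window runs from 250 bases before to 50 bases after the annotated start in RefSeq, build GRCh38.p14. That of NELFB lies at chr9:137255077-137255376 on the plus strand and that of NELFE at chr6:31958922-31959221 on the minus strand. Capitals mark the GC box, GGGCGG on either strand.
NELFB: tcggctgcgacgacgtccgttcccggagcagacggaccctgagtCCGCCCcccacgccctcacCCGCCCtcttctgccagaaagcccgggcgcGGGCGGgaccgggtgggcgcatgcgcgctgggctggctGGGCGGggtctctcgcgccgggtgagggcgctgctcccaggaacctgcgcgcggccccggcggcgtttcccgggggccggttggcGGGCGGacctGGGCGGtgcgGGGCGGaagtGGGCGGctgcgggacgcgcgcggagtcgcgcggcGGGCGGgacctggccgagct
NELFE: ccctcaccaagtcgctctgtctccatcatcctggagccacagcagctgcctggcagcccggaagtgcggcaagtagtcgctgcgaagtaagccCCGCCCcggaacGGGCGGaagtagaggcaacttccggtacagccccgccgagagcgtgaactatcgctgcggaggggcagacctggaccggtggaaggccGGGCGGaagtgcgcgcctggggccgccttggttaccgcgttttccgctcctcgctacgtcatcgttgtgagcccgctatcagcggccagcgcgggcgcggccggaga
The NELFB window held 9 GC boxes and was 79.3% G and C, and the NELFE window held 3 and was 67.7% G and C. Windows were found for 25 of the 28 members, 29 windows in all since some genes have several starts. Of these, 72.4% held a GC box, against 44.9% of 34796 windows of all genes. The letters CCAAT, on either strand, were in 27.6% of the members' windows and 34.6% of all windows, and TATAAA in 0 of the members' 29 windows and 11.6% of all windows. These are descriptions of letters in the windows and not of binding. The windows of all genes were not limited to genes with a gene value here, while every member had one. The shares thus compare unlike sets, and whether they are particular to elongation factors was not tested.

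The gene HTATSF1, which encodes Tat-SF1 and is the target of both shRNAs, was lower on every knockdown array than on every control array. Its gene values were 8.29, 8.21 and 8.22 with shRNA A and 8.11, 8.19 and 8.21 with shRNA B, against 8.53, 8.63 and 8.49 with GFP shRNA and 8.54 and 8.32 with the empty vector. The difference was -0.30 ± 0.051 (SE; limma adjusted p = 0.0484), and in 10 of the 11 fits that omitted a single array it missed the threshold, with adjusted p between 0.0567 and 0.103. It also missed it with the replicate block (adjusted p = 0.0603), with the suffix described below as a block (-0.254; adjusted p = 0.36) and without the filter on dim probe sets (adjusted p = 0.0939). Above the array median the HTATSF1 signal was 56 ± 11.6 units (SD, n = 6) on the knockdown arrays and 124 ± 28.4 units (SD, n = 5) on the control arrays, 45.1% of the control signal. On a background-subtracted log2 scale, with 16 units added before the logarithm, the difference was -0.952 (limma adjusted p = 0.0362). The added units make that difference smaller than the 45.1% would give. The arrays correlated with each other at 0.941 to 0.962. The 3000 brightest genes averaged 9.258 ± 0.0447 (SD, n = 6) on the knockdown arrays and 9.325 ± 0.0411 (SD, n = 5) on the control arrays (exact permutation p = 0.0303), from 9.182 on shRNA B replicate 1 to 9.382 on GFP shRNA replicate 1. Dim probe sets crowd near the array medians of 7.902 to 7.905, so the change of a gene close to that level may be compressed. The array names of shRNA A replicate 3 and all of shRNA B carry a suffix that no control has. A fit with the suffix as a block therefore compares shRNA A replicates 1 and 2 with the controls. Of the markers of HEK293 cells, VIM (9.96 to 10.41), KRT8, KRT18 and NEFL (8.89 to 9.71) lay well above the array medians. PAX2 and NEFM lay near them, and LHX1 and MYC had no gene value. Of the listed markers of blood cells, endothelium, fibroblasts and hepatocytes, 12 of 18 had a gene value, and these were at most 8.19 on every array. Of the carcinoma markers, EPCAM lay between 8.51 and 8.89, CDH1 between 7.93 and 8.22 and ESR1 between 7.89 and 7.95, and KRT19 had no gene value. Knockdown minus control was -0.25 ± 0.086 in KRT8 and -0.18 ± 0.059 in EPCAM (SE), neither of which passed, and their part in the members' values was not tested.

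No elongation factor gene passed the test across all genes when the knockdown arrays were set against the controls, while 32 of the 14543 genes (0.22%) did. That count depended on single arrays, from 2 without GFP shRNA replicate 3 to 66 without empty vector replicate 2. At an unadjusted p under 0.05 by limma, 7 of the 28 members (25%) were lower and 0 were higher, against 12.8% of all genes lower and 2.37% higher (15.2% in either direction). That larger share depended on single arrays: 3 members (10.7%) were left without shRNA A replicate 2, against 13% of all genes in either direction, and 3 without GFP shRNA replicate 3, against 13.1%. With all arrays, these 7 were NELFB and NELFE, the DSIF subunit gene SUPT5H, the PAF component gene RTF1, and ELL, TCEA2 and IWS1. In all, 22 of the 28 had a lower mean on the knockdown arrays (78.6%), against 67.2% of all genes. The median difference of the members was -0.0464, beside -0.0165 for all genes, and the arrays of the knockdown group were dimmer, as given above. The part of that brightness in the members' values was not tested. After quantile normalization the median of the members was -0.034, beside -0.0131 for all genes, with 19 members lower and 9 higher in place of 22 and 6. Without the brightest and the dimmest array that median was -0.0263, beside -0.00526 for all genes, with 18 members lower and 10 higher. The 95% confidence intervals of the 28 differences lay within -0.37 (NELFB) and 0.23 (AFF4) on the log2 scale. In RNA from whole cultures, fewer cells expressing a gene and less RNA per cell cannot be told apart.

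**Figure D1:**
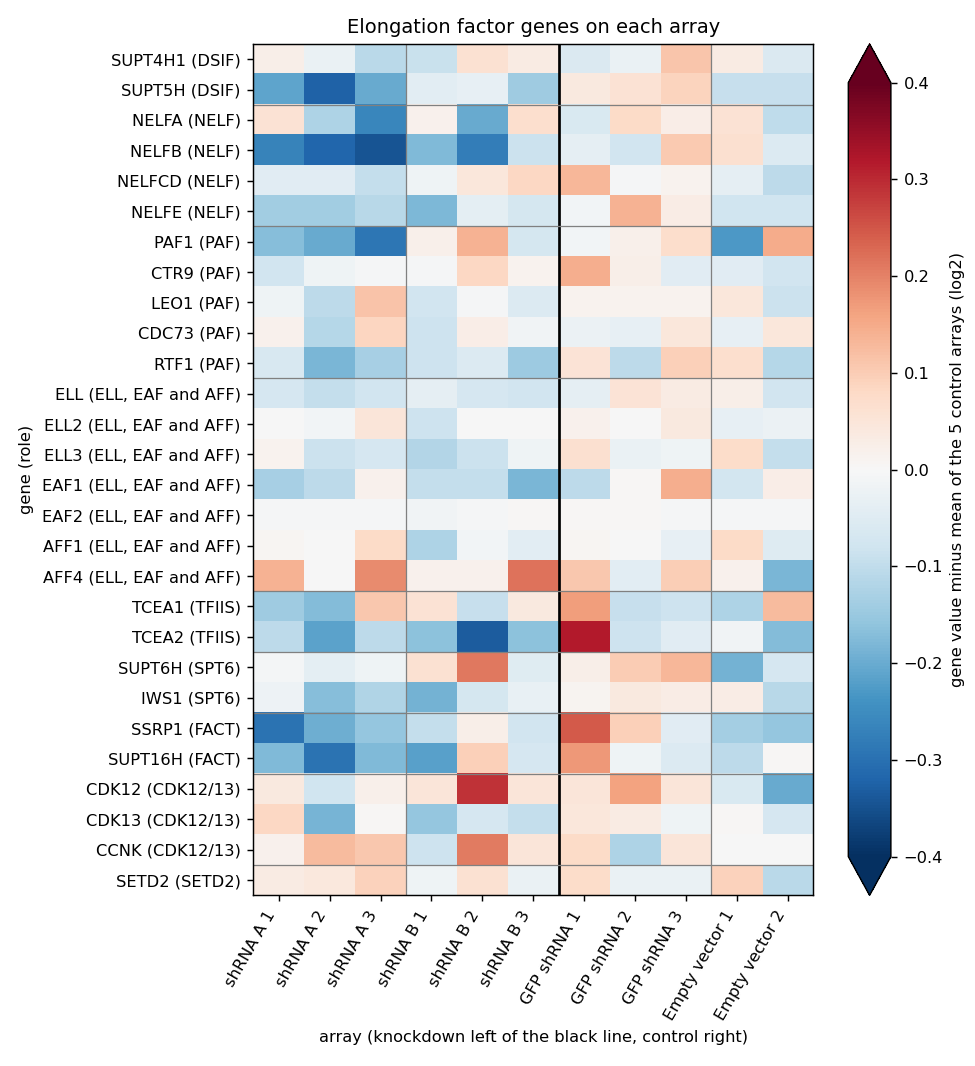
Gene value of each of the 28 members on each of the 11 arrays, as the log2 difference from the mean of the 5 control arrays; rows are genes with their role, columns are arrays, with knockdown arrays left of the black line, and the colour scale runs from -0.4 to 0.4. NELFB is below the control mean on all 6 knockdown arrays, SUPT5H is lowest with shRNA A, and TCEA2 is highest on GFP shRNA replicate 1, at a gene value of 8.92.

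NELF is a complex of NELFA, NELFB, NELFC or its shorter form NELFD (both from NELFCD) and NELFE. NELFB, also known as COBRA1, was the member with the smallest p. Its gene values were 9.16, 9.11 and 9.08 with shRNA A and 9.25, 9.15 and 9.34 with shRNA B, against 9.39, 9.35 and 9.53 with GFP shRNA and 9.49 and 9.37 with the empty vector. Every knockdown array lay below every control array, with shRNA B replicate 3 closest to the controls. It was the single member of the 28 (3.57%) whose groups did not overlap, against 2.23% of all genes (2.01% lower). NELFB averaged 9.18 ± 0.096 (SD, n = 6) on the knockdown arrays and 9.42 ± 0.080 (SD, n = 5) on the control arrays (exact permutation p = 0.00433). The difference of -0.24 ± 0.061 (SE) did not pass over all genes (adjusted p = 0.0856). All 9 of its probe sets used had a lower mean in the knockdown group, by between -0.02 and -0.44. The gene value is the median of these probe sets, so their direction is not separate evidence. The share of all probe sets with a lower mean is not given here. Both limits hold for the counts of lower probe sets in the genes below. Above the array median, where the signal was taken as background, the knockdown arrays held 342 ± 39.6 units (SD, n = 6) and the control arrays 449 ± 38.5 units (SD, n = 5), 76.3% of the control signal.

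NELFE, the RNA-binding subunit, had gene values of 8.42, 8.42 and 8.45 with shRNA A and 8.38, 8.52 and 8.49 with shRNA B, against 8.55, 8.70 and 8.59 with GFP shRNA and 8.48 and 8.48 with the empty vector. Both empty vector arrays lay within the range of the knockdown arrays and the GFP shRNA arrays lay above it. The difference was -0.11 ± 0.048 (SE; adjusted p = 0.284). Of its 15 probe sets used, 12 had a lower mean in the knockdown group. The 4 largest differences, of -0.35, -0.34, -0.30 and -0.25, were in probe sets with control means between 8.87 and 10.05, whereas the 3 probe sets with a higher mean had control means between 7.96 and 8.03, close to the array medians.

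Whether these 2 NELF genes passed depended on the processing. When probe sets were averaged in place of taking their median, NELFB fell by 0.22 ± 0.043 (SE) and NELFE fell by 0.14 ± 0.028 (SE), both with a limma adjusted p of 0.0355, and 0.963% of all genes passed. With a floor 0.5 higher on the level of the probe sets, NELFE was at -0.25 ± 0.065 (SE; adjusted p = 0.0309) and NELFB at -0.24 ± 0.067 (SE; adjusted p = 0.0398), and 3.52% of all genes passed. That floor left 7240 genes to adjust over. Of these, 21.7% had an unadjusted p under 0.05 by limma, against 15.2% of the 14543 genes with the main floor. NELFB was at -0.242 with either floor, and its standard error was 0.061 with the main floor. NELFE was at -0.112 with the main floor and at -0.252 with the higher floor. Why the 2 genes passed with the higher floor was not tested. Without any filter on dim probe sets NELFB was at -0.121 (adjusted p = 0.544) and NELFE at -0.114 (adjusted p = 0.118). With the suffix of the array names taken as a block, NELFB was at -0.288 (adjusted p = 0.38) and NELFE at -0.138 (adjusted p = 0.584). These are differences of shRNA A replicates 1 and 2 from the controls, since no control has the suffix. That fit does not bear on shRNA B, all of whose arrays carry the suffix. The other NELF subunit genes had smaller differences in gene value. The median difference of the probe sets was -0.14 in NELFA, with 8 of 11 lower, and -0.03 in NELFCD, beside -0.15 in NELFE. NELFA averaged 8.54 ± 0.14 (SD, n = 6) on the knockdown arrays and 8.61 ± 0.077 (SD, n = 5) on the control arrays, and NELFCD averaged 9.20 ± 0.065 and 9.22 ± 0.088 in the same order of groups. Their intervals, of -0.07 ± 0.064 and -0.01 ± 0.056 (SE), leave room for differences as large as that of NELFE.

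**Figure D2:**
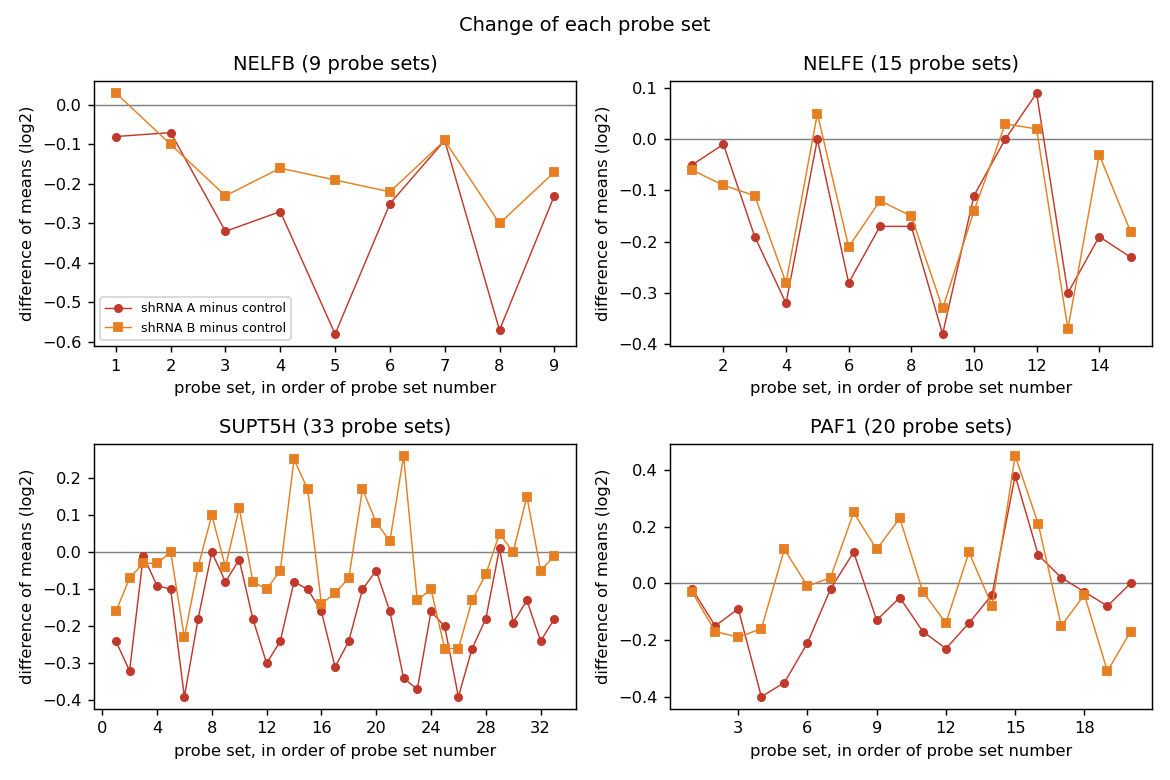
Difference of each probe set's mean from the control mean (log2, vertical axis) for shRNA A (circles, n = 3) and shRNA B (squares, n = 3) in NELFB, NELFE, SUPT5H and PAF1, with probe sets in order of their number on the horizontal axis. In NELFB the probe sets spread below 0 with both shRNAs except the first with shRNA B, and in PAF1 a single probe set, the 15th of 20, stands high with both.

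In DSIF, SUPT5H encodes SPT5, the large subunit that P-TEFb phosphorylates, and SUPT4H1 the small zinc-finger subunit SPT4. SUPT5H gene values were 8.89, 8.78 and 8.90 with shRNA A and 9.06, 9.07 and 8.96 with shRNA B, against 9.14, 9.16 and 9.19 with GFP shRNA and 9.01 and 9.01 with the empty vector. All shRNA A arrays lay below all controls, while shRNA B arrays lay on both sides of the empty vector. The pooled difference was -0.16 ± 0.062 (SE; limma adjusted p = 0.234; exact permutation p = 0.0303), and 25 of 33 probe sets had a lower mean in the knockdown group. Without the filter on dim probe sets it was -0.08. SUPT4H1 averaged 9.15 ± 0.067 (SD, n = 6) on the knockdown arrays and 9.17 ± 0.074 (SD, n = 5) on the control arrays, and 1 of its 11 probe sets used lies far from the others in the numbering.

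TFIIS lets a backtracked polymerase cut its own transcript and resume. TCEA2, the form known from testis in mammals, had gene values of 8.50, 8.39 and 8.50 with shRNA A and 8.44, 8.27 and 8.44 with shRNA B, against 8.92, 8.52 and 8.56 with GFP shRNA and 8.59 and 8.43 with the empty vector. The groups overlapped at the empty vector, and GFP shRNA replicate 1, the brightest array, stood above all others. The difference was -0.18 ± 0.073 (SE; adjusted p = 0.239), and without that array it was -0.105 (adjusted p = 0.41). TCEA1, the ubiquitous form, averaged 8.67 ± 0.12 (SD, n = 6) on the knockdown arrays and 8.70 ± 0.14 (SD, n = 5) on the control arrays. Of its 20 probe sets used, 7 lie in a separate run of probe set numbers, and without them the difference was -0.13 ± 0.12 (SE), in place of -0.03 ± 0.068, with an adjusted p of 0.641.

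The PAF complex is a platform for chromatin modifiers on the moving polymerase, and RTF1 is the component that promotes ubiquitination of histone H2B. RTF1 gene values were 8.37, 8.25 and 8.30 with shRNA A and 8.35, 8.38 and 8.29 with shRNA B, against 8.49, 8.33 and 8.53 with GFP shRNA and 8.50 and 8.32 with the empty vector. GFP shRNA replicate 2 and empty vector replicate 2 lay among the knockdown arrays. The difference was -0.11 ± 0.048 (SE; adjusted p = 0.29), with 20 of 24 probe sets lower. The scaffold CTR9 averaged 8.71 on both sides, with a difference of 0.00 ± 0.050 (SE), LEO1 was at -0.02 ± 0.044 and CDC73, a tumour suppressor also called parafibromin, at -0.02 ± 0.045 (SE). PAF1 itself was at -0.10 ± 0.085 (SE), the largest standard error among the members, and its arrays are given with the separate shRNAs below.

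ELL proteins suppress pausing of the polymerase, and EAF proteins bind them. ELL gene values were 8.02, 7.99 and 8.01 with shRNA A and 8.05, 8.02 and 8.01 with shRNA B, against 8.05, 8.14 and 8.12 with GFP shRNA and 8.11 and 8.01 with the empty vector. All of them lie close to the array medians, and the difference of -0.07 ± 0.023 (SE; adjusted p = 0.174) rests on small signals, 19.7 ± 3.2 units above the median (SD, n = 6) on the knockdown arrays and 32.4 ± 9.92 units (SD, n = 5) on the control arrays. With the mean of the probe sets it was -0.023 and without the filter -0.03. ELL3 (8.08 to 8.27 over all arrays) and EAF2 (7.93 to 7.95) also lay close to the array medians. ELL2 was at -0.01 ± 0.039 and EAF1 at -0.10 ± 0.053 (SE). AFF4, the scaffold of the super elongation complex, had the highest difference of the 28, 0.10 ± 0.062 (SE; adjusted p = 0.495), with averages of 8.86 ± 0.097 (SD, n = 6) on the knockdown arrays and 8.76 ± 0.12 (SD, n = 5) on the control arrays, and AFF1 was at -0.02 ± 0.043 (SE).

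Of the factors that act on nucleosomes, IWS1, the partner of SPT6, had gene values of 8.32, 8.17 and 8.22 with shRNA A and 8.15, 8.27 and 8.31 with shRNA B, against 8.35, 8.38 and 8.37 with GFP shRNA and 8.37 and 8.23 with the empty vector. Empty vector replicate 2 lay among the knockdown arrays and the other 4 controls lay above all of them. The difference was -0.10 ± 0.044 (SE; adjusted p = 0.312). SUPT6H, which encodes SPT6, was at 0.03 ± 0.067 (SE).

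FACT is a dimer of SSRP1 and SPT16 that opens and restores nucleosomes. SUPT16H gene values were 9.66, 9.54 and 9.66 with shRNA A and 9.62, 9.93 and 9.77 with shRNA B, against 10.01, 9.82 and 9.78 with GFP shRNA and 9.73 and 9.84 with the empty vector. The groups overlapped through shRNA B alone. The difference was -0.14 ± 0.075 (SE; adjusted p = 0.391), and -0.083 without the brightest and the dimmest array. SSRP1 was at -0.13 ± 0.082 (SE; adjusted p = 0.46). Of the 41 probe sets used for SUPT16H, 10 lie in a separate run of numbers, and without them the difference was -0.14 ± 0.087 (SE).

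The kinases CDK12 and CDK13 share the cyclin K encoded by CCNK, and none of the 3 passed. CDK12 was at 0.06 ± 0.072, CDK13 at -0.07 ± 0.051 and CCNK at 0.07 ± 0.054 (SE), with adjusted p of 0.721, 0.567 and 0.588. SETD2, the methyltransferase for lysine 36 of histone H3, was at 0.03 ± 0.043 (SE; adjusted p = 0.777).

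**Figure D3:**
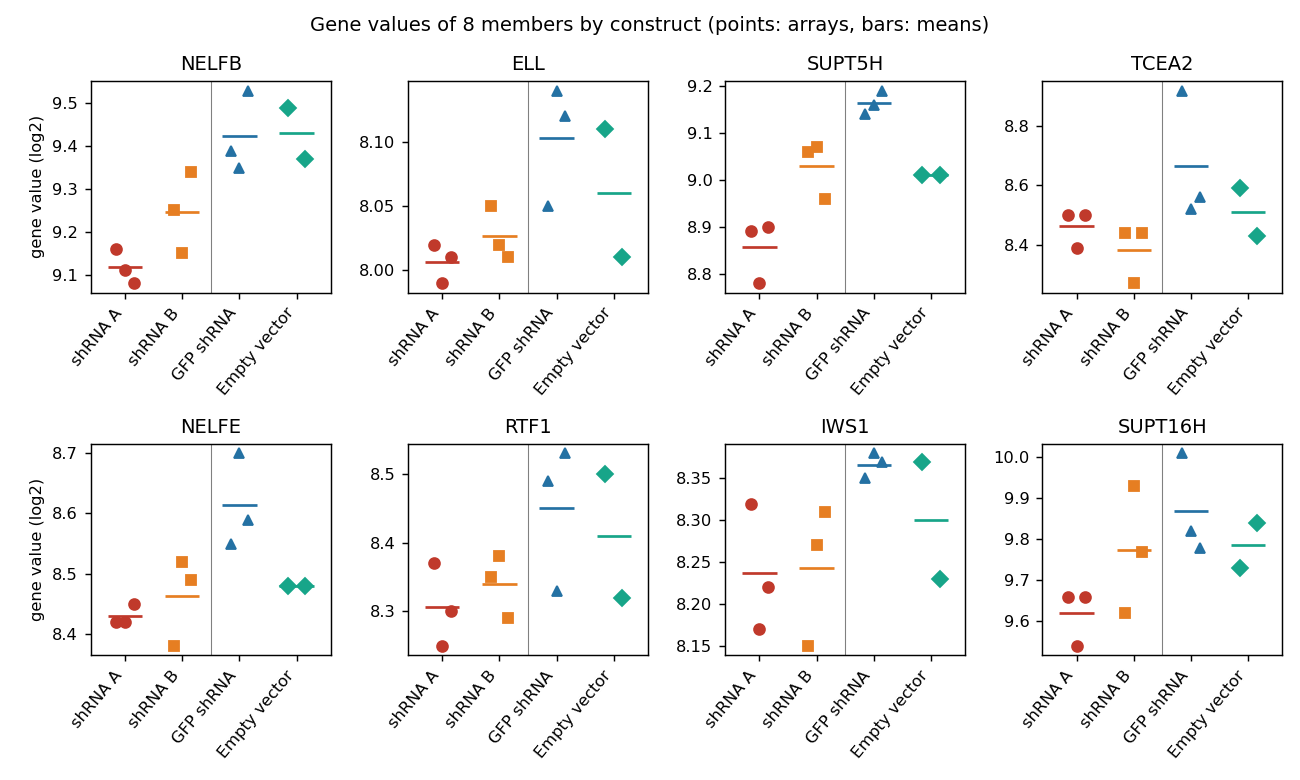
Gene values (log2, vertical axes, each with its own range) of the 8 members with the smallest p, by construct; points are arrays and bars are means of 3 arrays (shRNA A, shRNA B, GFP shRNA) or 2 arrays (empty vector), with the knockdown constructs left of the grey line. The groups are separate in NELFB, and in the other 7 genes at least 1 control array lies within the range of the knockdown arrays.

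Each shRNA was then set against the same 5 controls, so that these 2 comparisons share their control arrays. With shRNA A 0 of 28 members passed by limma (0.00688% of all genes passed), and 7 members (25%) had an unadjusted p under 0.05, all lower, against 9.01% of all genes lower and 1.73% higher (10.7% in either direction). They were NELFB (-0.31 ± 0.069, SE; adjusted p = 0.157), SUPT5H (-0.25 ± 0.066, SE; adjusted p = 0.213), PAF1 (-0.22 ± 0.088, SE), SUPT16H (-0.22 ± 0.086, SE), SSRP1 (-0.22 ± 0.094, SE), RTF1 (-0.13 ± 0.060, SE) and ELL (-0.08 ± 0.028, SE). When probe sets were averaged, NELFB passed with shRNA A, at -0.27 ± 0.045 (SE; adjusted p = 0.041), when 0.0963% of all genes did. With shRNA B 0 of 28 members passed by limma (0.0688% of all genes), and 2 members (7.14%), NELFB (-0.18 ± 0.069, SE; adjusted p = 0.289) and TCEA2 (-0.22 ± 0.089, SE; adjusted p = 0.297), had an unadjusted p under 0.05, both lower, against 10.6% of all genes lower and 2.71% higher (13.3% in either direction). Of the members, 23 had a lower mean with shRNA A than with the controls and 19 with shRNA B. All 3 arrays of shRNA B carry the suffix, so that in this comparison suffix and shRNA cannot be told apart.

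The difference between the shRNAs was tested directly. Against shRNA A, 0 of 28 members passed with shRNA B by limma, nor did any gene (0%), and 2 members (7.14%) had an unadjusted p under 0.05, both higher with shRNA B, against 2.37% of all genes higher and 2.02% lower (4.39% in either direction). PAF1 gene values were 9.82, 9.94 and 9.73 with shRNA B and 9.63, 9.60 and 9.51 with shRNA A, beside 9.79, 9.82 and 9.87 with GFP shRNA and 9.57 and 9.95 with the empty vector. The 2 empty vector arrays spanned nearly the range of both shRNAs. The difference between shRNA B and shRNA A was 0.25 ± 0.099 (SE) in PAF1 and 0.17 ± 0.074 (SE) in SUPT5H, both with an adjusted p of 0.999. The 95% confidence intervals of the 28 members, PAF1 and SUPT5H included, lay within -0.29 (TCEA2) and 0.46 (PAF1).

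**Figure D4:**
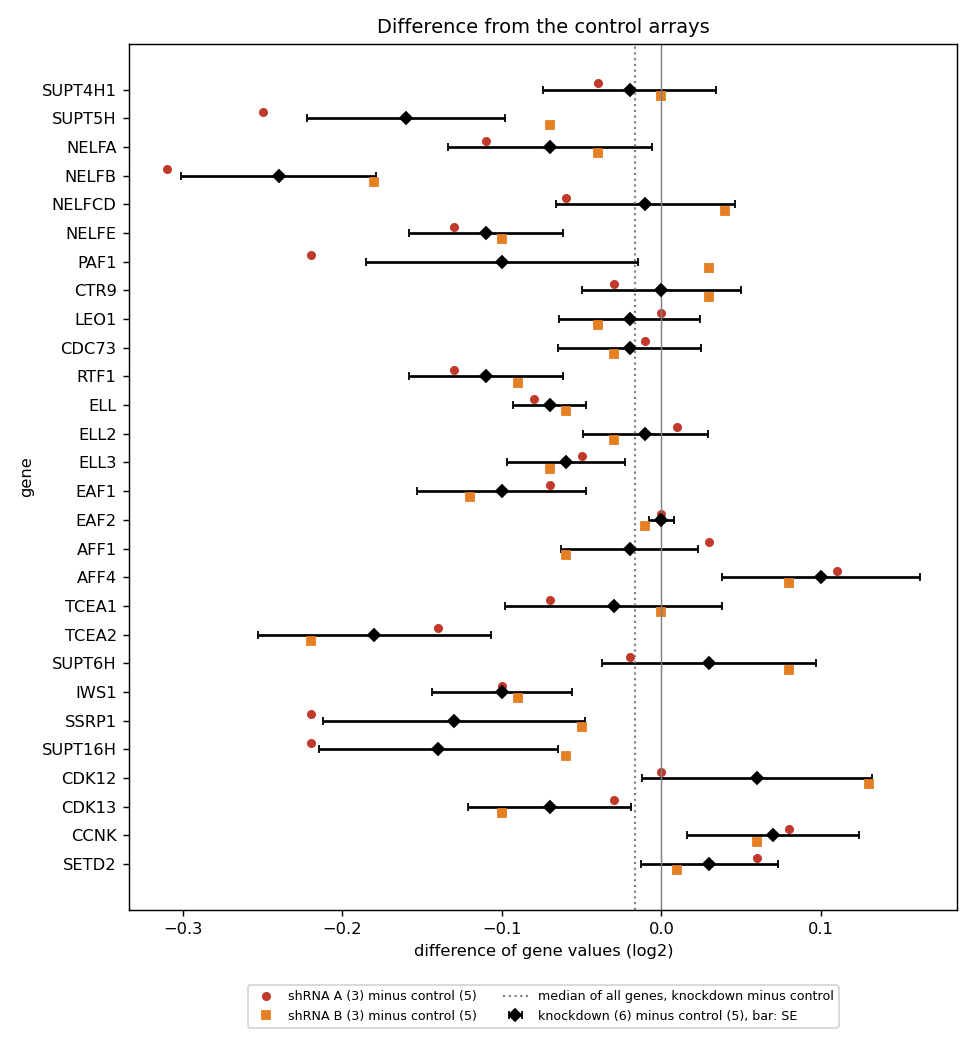
Difference of gene values from the 5 control arrays (log2, horizontal axis) for each member: pooled knockdown with its standard error (black diamonds, n = 6), shRNA A (circles, n = 3) and shRNA B (squares, n = 3); the dotted line marks the median of all genes in the pooled comparison, -0.0165. NELFB lies farthest to the left in the pooled comparison, at -0.24, and the shRNAs stand far apart in SUPT5H and PAF1.

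The spread between the 2 control constructs bears on these sizes. With GFP shRNA against the empty vector 0 of 28 members passed by limma (0.00688% of all genes), and 3 members (10.7%) had an unadjusted p under 0.05, all higher with GFP shRNA, against 3.02% of all genes higher (4.47% in either direction). SSRP1 gene values were 10.53, 10.38 and 10.24 with GFP shRNA and 10.15 and 10.13 with the empty vector (0.24 ± 0.10, SE). Those of CDK12 were 9.03, 9.14 and 9.03 with GFP shRNA and 8.92 and 8.78 with the empty vector (0.22 ± 0.092, SE). Those of SUPT6H were 9.12, 9.20 and 9.23 with GFP shRNA and 8.91 and 9.03 with the empty vector (0.21 ± 0.087, SE). In these 3 genes the adjusted p was 0.948. Of the 28 members, 24 had a higher mean with GFP shRNA, and the median difference was 0.0434, beside 0.0156 for all genes. NELFB was at 0.00 ± 0.090 (SE) in this comparison, and SUPT5H at 0.16 ± 0.075 (SE).

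Genes of the wider pathway that are not members were read as 4 lists. Of 53 genes listed, 51 had a gene value and 0 passed by limma in the pooled comparison. At an unadjusted p under 0.05, 9 (17.6%) were lower and 0 higher, against 12.8% of all genes lower and 2.37% higher, and the median of the 51 was -0.0211. Lower means were found for 35 of the 51, a share close to the 67.2% of all genes. Of the 12 RNA polymerase II subunit genes, 8 had lower means, and POLR2E (-0.23 ± 0.075), POLR2G (-0.17 ± 0.059) and POLR2I (-0.17 ± 0.077, SE) were among the 9. Of the 7 measured genes of P-TEFb and the 7SK complex that holds it inactive, 4 had lower means, and MEPCE, which caps 7SK RNA, was at -0.12 ± 0.053 (SE). Of 17 further elongation factor genes, 12 had lower means, with ELOC, a subunit of elongin, at -0.23 ± 0.064, MLLT1 (ENL), a reader of acetylated histones in the super elongation complex, at -0.13 ± 0.051, and SKIC8, a protein of the PAF and SKI complexes, at -0.05 ± 0.024 (SE). Of the 15 genes of Integrator, which cleaves nascent RNA at paused polymerases, 11 had lower means, with INTS10 at -0.19 ± 0.063 and INTS11, the endonuclease, at -0.13 ± 0.049 (SE).

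Exon usage was read from the splicing index, the log2 value of a probe set less that of its gene on each array. A difference in it means that parts of a gene differed unequally and does not tell which of them did. None of the 633 probe sets of the members passed over the 221432 probe sets tested by limma (0.00316% of which passed), and the smallest adjusted p was 0.0826. At an unadjusted p under 0.05 there were 103 (16.3%), 58 higher and 45 lower, against 11.8% of all probe sets. The knockdown and control arrays did not overlap in 14 (2.21%), in 11 genes, against 1.45% of all probe sets, and RTF1 held 3 of the 14. The differences ranged from -0.41 (SUPT6H) to 0.50 (PAF1). The probe sets described below are the 10 with the smallest p among the 14, 1 per gene, so that their separation is part of how they were chosen.

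In PAF1, probe set 3861996 had a splicing index of 1.18, 1.34 and 1.13 with shRNA A and 1.06, 0.84 and 1.22 with shRNA B, against 0.69, 0.63 and 0.80 with GFP shRNA and 0.61 and 0.39 with the empty vector. The difference was 0.50 ± 0.091 (SE; adjusted p = 0.0924), with the probe set itself at 10.83 ± 0.12 (SD, n = 6) on the knockdown arrays and 10.42 ± 0.18 (SD, n = 5) on the control arrays, while the gene value differed by -0.10. It is the 15th of 20 in the numbering, and neither neighbour moved as far.

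In AFF1, a scaffold like AFF4, probe set 2734840 had an index of 0.28, 0.19 and 0.29 with shRNA A and 0.26, 0.32 and 0.15 with shRNA B, against 0.09, 0.01 and 0.00 with GFP shRNA and -0.03 and 0.06 with the empty vector. The difference of 0.23 ± 0.038 (SE; adjusted p = 0.0826) had the smallest p of all member probe sets, in a gene whose own value differed by -0.02. AFF4 went the other way: probe set 2875583 had an index of 0.81, 1.00 and 0.86 with shRNA A and 0.86, 0.81 and 0.86 with shRNA B, against 1.22, 1.22 and 1.04 with GFP shRNA and 1.10 and 1.36 with the empty vector (-0.32 ± 0.059, SE; adjusted p = 0.0962). Its level was 9.72 ± 0.097 (SD, n = 6) on the knockdown arrays and 9.95 ± 0.083 (SD, n = 5) on the control arrays, while the AFF4 gene value was higher by 0.10.

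In SUPT6H, probe set 3715713, the 3rd of 44 in the numbering, had an index of 0.21, 0.00 and 0.40 with shRNA A and 0.36, 0.29 and 0.07 with shRNA B, against 0.59, 0.72 and 0.48 with GFP shRNA and 0.64 and 0.76 with the empty vector (-0.41 ± 0.078, SE; adjusted p = 0.101). In NELFCD, probe set 3891286, the 5th of 32, had an index of 0.33, 0.45 and 0.19 with shRNA A and 0.25, 0.26 and 0.27 with shRNA B, against 0.47, 0.55 and 0.62 with GFP shRNA and 0.49 and 0.64 with the empty vector (-0.26 ± 0.050, SE; adjusted p = 0.106). NELFCD thus had a gene value at the control level and a probe set at 9.50 ± 0.11 (SD, n = 6) on the knockdown arrays, against 9.77 ± 0.071 (SD, n = 5) on the control arrays. In RTF1, probe set 3590428, the 3rd of 24, had an index of 0.00, 0.13 and 0.19 with shRNA A and 0.19, -0.03 and -0.01 with shRNA B, against 0.40, 0.30 and 0.28 with GFP shRNA and 0.32 and 0.53 with the empty vector (-0.29 ± 0.059, SE; adjusted p = 0.117). In these 3 genes the deviating probe set is among the first in the numbering, as in AFF1 (5th of 40) and EAF2 (1st of 10). Those of PAF1 (15th of 20), AFF4 (18th of 32), SUPT16H (25th of 41), SUPT5H (15th of 33) and IWS1 (12th of 21) lay further along. The direction of the numbering along each gene was not used here.

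EAF2, whose gene value lay close to the array medians, had 1 probe set with separate groups. Probe set 2638688, the first of 10, was at 8.21, 8.30 and 8.27 with shRNA A and 8.31, 8.24 and 8.35 with shRNA B, against 7.99, 8.11 and 7.73 with GFP shRNA and 7.93 and 8.11 with the empty vector on the log2 scale. All knockdown arrays lay above all controls, and its splicing index differed by 0.31 ± 0.063 (SE; adjusted p = 0.115). The remaining 3 were in SUPT16H (0.26 ± 0.052), SUPT5H (0.19 ± 0.040) and IWS1 (0.15 ± 0.034, SE), with adjusted p of 0.115, 0.12 and 0.139. In these genes the probe set differed by 0.12, 0.03 and 0.05 in level and the gene value by -0.14, -0.16 and -0.10, so that most of each difference in the index was in the gene value.

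**Figure D5:**
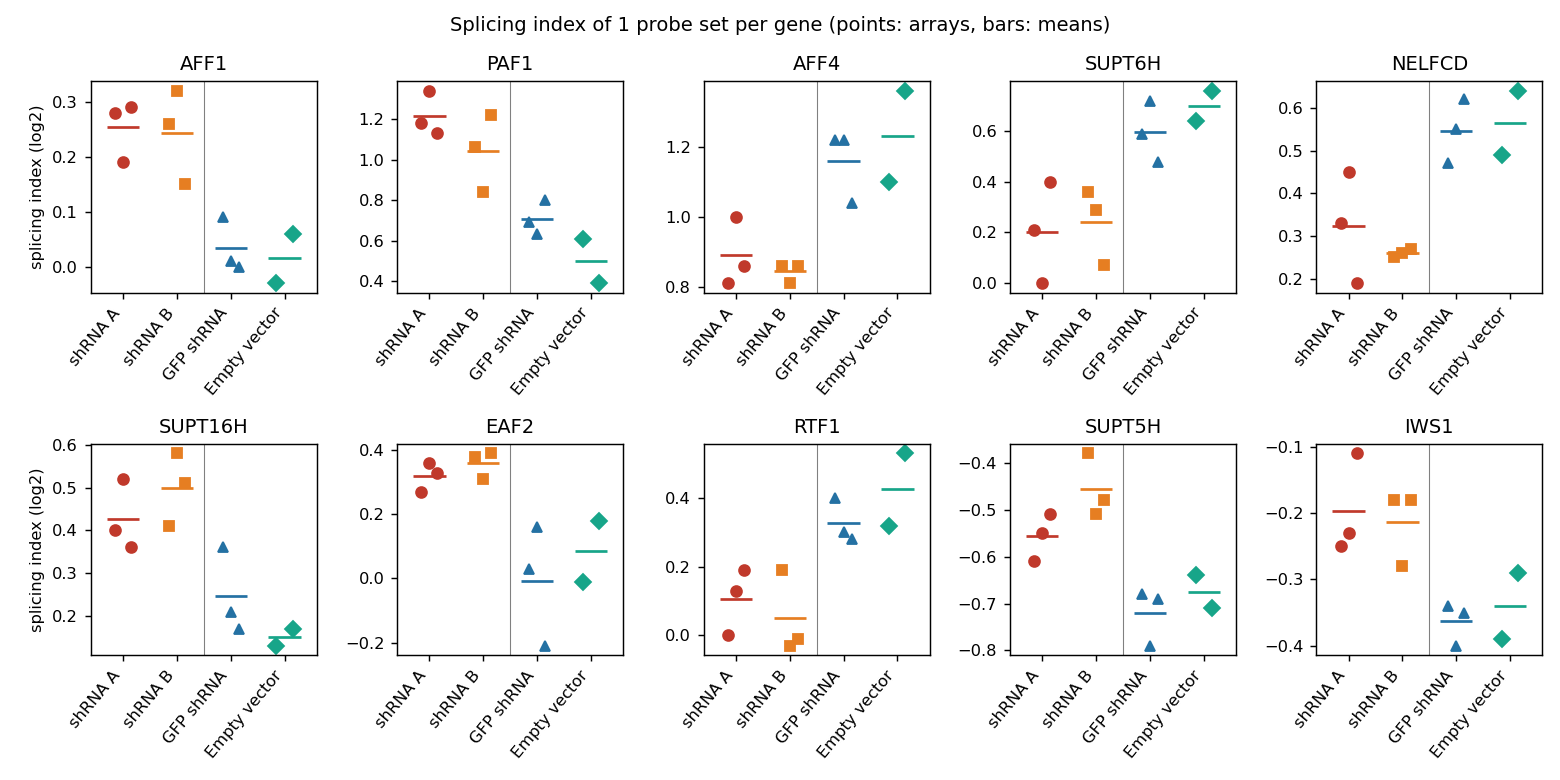
Splicing index (log2, vertical axes, each with its own range) of 1 probe set in each of 10 member genes, by construct; points are arrays and bars are means of 3 arrays (shRNA A, shRNA B, GFP shRNA) or 2 arrays (empty vector), with the knockdown constructs left of the grey line. The index was higher on the knockdown arrays in AFF1, PAF1, SUPT16H, EAF2, SUPT5H and IWS1 and lower in AFF4, SUPT6H, NELFCD and RTF1, as selected.

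With each shRNA alone against the controls, 0 member probe sets passed by limma, as did 0% of all probe sets. At an unadjusted p under 0.05 there were 97 with shRNA A (15.3%, against 9.46% of all probe sets) and 85 with shRNA B (13.4%, against 10.3%). Between shRNA B and shRNA A there were 53 (8.37%, against 5.52%), 18 higher and 35 lower with shRNA B, and 0 passed. In the pooled comparison NELFB and NELFE, with 9 and 15 probe sets, held 0 with separate groups by splicing index, against 1.45% of all probe sets. At an unadjusted p under 0.05 by limma, NELFB held 1 and NELFE held 4, against 11.8% of all probe sets. Levels were lower in all 9 probe sets of NELFB and in 12 of the 15 of NELFE, by unequal amounts. So few probe sets cannot tell whether either gene changed evenly along its length.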

How the data were processed

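The authors deposited log2 values for 11 arrays and 1399022 exon probe sets. The sources used here do not give their software, background correction, normalization or genome build, and the log2 scale was read from the values. Per the labels, RNA was DNase-treated and biotin-labelled with a whole transcript kit. Probe sets without an estimate on an array (13190 to 15431 per array) carry a placeholder and were left out. The number of arrays limits the precision.

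Probe sets were used if they had 1 gene symbol in GEO's array annotation (355799; 15195 with several symbols were left out, 3 of them naming a member), values on all arrays and an average of at least 7.906, the median of the table. A gene needed at least 4, which left 221432 probe sets and 14543 genes. Older symbols were updated through RefSeq synonyms (GRCh38.p14), which named 6 members. No array coordinates are given because the table's build is not named.

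Gene values (medians) and splicing indices were tested with limma 3.58.1 (lmFit, eBayes with a trend) in R 4.3.3, adjusted by Benjamini-Hochberg over all genes or probe sets. The threshold was an adjusted p of 0.05. The pooled comparison used 2 levels, those of the separate shRNAs 3 and that of the controls 4. Exact two-sided permutation tests ran over all 462 splits, with a smallest p of 0.0022. The tests were also run on simulated data with independent noise per gene. Those data held no difference in brightness and no suffix, so they do not bear on either. The members, lists and alternatives were chosen with earlier results of these data known. Members were named by a fixed rule, the 8 with the smallest pooled p and those with an unadjusted p under 0.05 elsewhere. For the separate probe sets it took up to 10 with separate groups, 1 per gene. The replicate numbers of the labels were not used to pair the arrays in the main fits. Deviations of same-numbered arrays from their construct means correlated between -0.147 and 0.268 over 15 pairs, with 5 over 0.1. Those of arrays with other numbers correlated between -0.268 and 0.217 over 30 pairs, with 6 over 0.1. These ranges do not settle whether the arrays were paired. The signal above background was the linear signal minus that of the array median. For the background-subtracted log2 scale, signals below the array median were raised to it. Then 16 units were added and the log2 was taken, which makes differences between small signals smaller.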

Additional observations from a re-analysis of the deposited data

Results flagged for a closer look

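Of 78 groups of arrays examined among the reported values, 4 held an array far from the rest, close to the 1 in 20 that chance gives. Empty vector replicate 2 was low among the 5 controls in LEO1 (8.27, with the next array at 8.37) and in IWS1 (8.23, with the next at 8.35). In CDK12, shRNA B replicate 2 was high among the 6 knockdown arrays, at 9.27 with the next at 9.03. In the splicing index of the AFF4 probe set, shRNA A replicate 2 was high among the knockdown arrays, at 1.00 with the next at 0.86, and thus closest to the controls.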

How the results depend on the processing

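No member passed in the pooled comparison under 20 of the 22 alternatives. With the mean of the probe sets 2 passed and with the higher floor 2, NELFB and NELFE each time, as given above. With shRNA A alone 1 member, NELFB, passed when probe sets were averaged, and 0 under the other 11 alternatives; the cause of these changes was not tested. In the comparisons with shRNA B, between the shRNAs and between the controls, and by splicing index, 0 members passed under every alternative run (limma; 66 to 123 member probe sets at an unadjusted p under 0.05). The count in the pooled comparison was 0 whichever 1 array was left out, with 3 to 8 members at an unadjusted p under 0.05, beside 11.9% to 18.3% of all genes. The median difference of the members lay between -0.0724 (higher floor) and -0.0246 (no filter), and between -0.0564 and -0.0319 when 1 array was left out. Lower means were found for 18 to 24 members. With the replicate block 0 members passed, 22 had lower means and the median was -0.0514, and 4 of 11 arrays correlated best with an array of their own number. The block changed no call of a member, ended that of HTATSF1 (adjusted p = 0.0603) and moved the count of all called genes to 10, and over all alternatives that count lay between 0 and 255. All 9 of the genes followed through the alternatives, HTATSF1 and 8 members, kept their sign under each alternative that gave a value. ELL had none with the higher floor. Beyond the cases given above, values moved by over 1.5 times for SUPT5H (-0.266) and SUPT16H (-0.239) with the suffix as a block, for SUPT5H (-0.103) and SUPT16H (-0.094) with averaged probe sets, and for TCEA2 with the higher floor (-0.072) and without the brightest and the dimmest array (-0.108). On the background-subtracted log2 scale, with 16 units added, HTATSF1 was at -0.952 and 0 members passed. On that scale NELFB was at -0.377, NELFE at -0.288, SUPT5H at -0.283, RTF1 at -0.33, TCEA2 at -0.463, ELL at -0.418 and IWS1 at -0.352.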
